A study of Homo sapiens with 3 samples.

Results

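Chromosome 17 carried 369 SRA sites and 240 p68 sites, 609 of the 22030 sites in the lists of both assays. SRA sites come from ChIRP-seq, in which biotinylated oligonucleotides complementary to a chosen RNA recover that RNA with the chromatin around it. p68 sites come from ChIP-seq with an antibody against p68. Both assays were done in NTERA2, a pluripotent line derived from a human embryonal carcinoma, grown in DMEM with serum and with no treatment named in the labels, and each deposited list was made from 3 biological replicates. Input chromatin is the only other sample and was not analysed here. The members are all sites of chromosome 17, split at a site midpoint of 40 Mb in hg19 coordinates. The chromosome and the split were chosen by the number of SRA sites per window along it and by the comparison of SRA with p68 numbers. The number of SRA sites on the sides of 40 Mb, and everything that follows directly from it, is therefore given as a description without a test.

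Steroid receptor RNA activator (SRA) is a long non-coding RNA first known as a co-activator of steroid receptors. It associates with p68, a DEAD box RNA helicase encoded by DDX5, and with protein complexes that methylate histone H3. Trithorax group (TrxG) complexes place the activating mark on lysine 4, and polycomb repressive complex 2 (PRC2) places the repressive mark on lysine 27. Promoters of developmental genes in pluripotent cells can carry both marks. DDX5 itself lies on the long arm of chromosome 17, as do the HOXB cluster of homeobox genes and SOX9, a transcription factor of cartilage and gonad development. Gain of this arm is a recurrent change in cultured human pluripotent stem cells and germ cell tumours, and copy number was not measured here. An annotation or sequence of hg19 was not used here, so sites are given by position and not by gene.

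The SRA sites were recovered with 29 oligonucleotide probes, each 20 nt long and complementary to SRA. The first, the middle and the last probe of the set are shown because the chromatin described as SRA sites is what such probes recovered.
SRA_1: ggctgatgtcatcacatacc
SRA_15: tctctgatgcggggactctg
SRA_29: tgaggcagcagtttgtttgg

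The ratio of SRA to p68 sites reversed across 40 Mb, although both lists held more sites after it. Before 40 Mb there were 10 SRA sites and 105 p68 sites, which is 0.095 SRA sites per p68 site (95% interval 0.044 to 0.18, exact binomial). After 40 Mb there were 359 SRA sites and 135 p68 sites, which is 2.66 SRA sites per p68 site (2.18 to 3.27). Intervals here and below cover counting error only, because each assay is 1 list without scores, read counts or replicates. Among the 24 chromosomes, SRA sites outnumbered p68 sites on chromosomes 16 and 17 alone. The ratio was 1.54 on chromosome 17 and 1.30 on chromosome 16. On all chromosomes other than 17 together it was 0.54. The lists were called at different thresholds, so that a ratio compares regions with each other and does not measure how much DNA either factor occupies.

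The SRA sites set in at 44 Mb, not at the split itself. A model with 2 constant rates, fitted to counts in windows of 1 Mb, placed the change at 44 Mb. Before this point there were 12 SRA sites (0.273 per Mb), and after it 357 (9.65 per Mb, with stretches of unknown sequence counted in the length). Windows of 500 kb and of 2 Mb, and sites within 10 kb counted once, gave the same position. With the site midpoints themselves as possible edges, the change fell at 44.03 Mb. The first SRA site past it ran from 44025515 to 44027072, and the next ones from 44105458 to 44106775 and from 44120884 to 44123321.

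The approach to this point was all but empty of SRA sites while p68 sites were present. In the 5 windows from 35 to 40 Mb there were 2 SRA sites and 21 p68 sites. In the 4 windows from 40 to 44 Mb there were 2 SRA sites and 19 p68 sites. These 2 SRA sites ran from 40480680 to 40482142 and from 41465444 to 41467557. The SRA site nearest to the split on its other side ran from 37606405 to 37607942. The p68 sites nearest to the split were much closer to it, from 39808004 to 39808742 and from 40076449 to 40077211. Between 41467558 and 44025514 there was no SRA site over 2.56 Mb and there were 10 p68 sites. From 44 to 45 Mb the SRA number rose to 7 and the p68 number was 1.

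**Figure D1:**
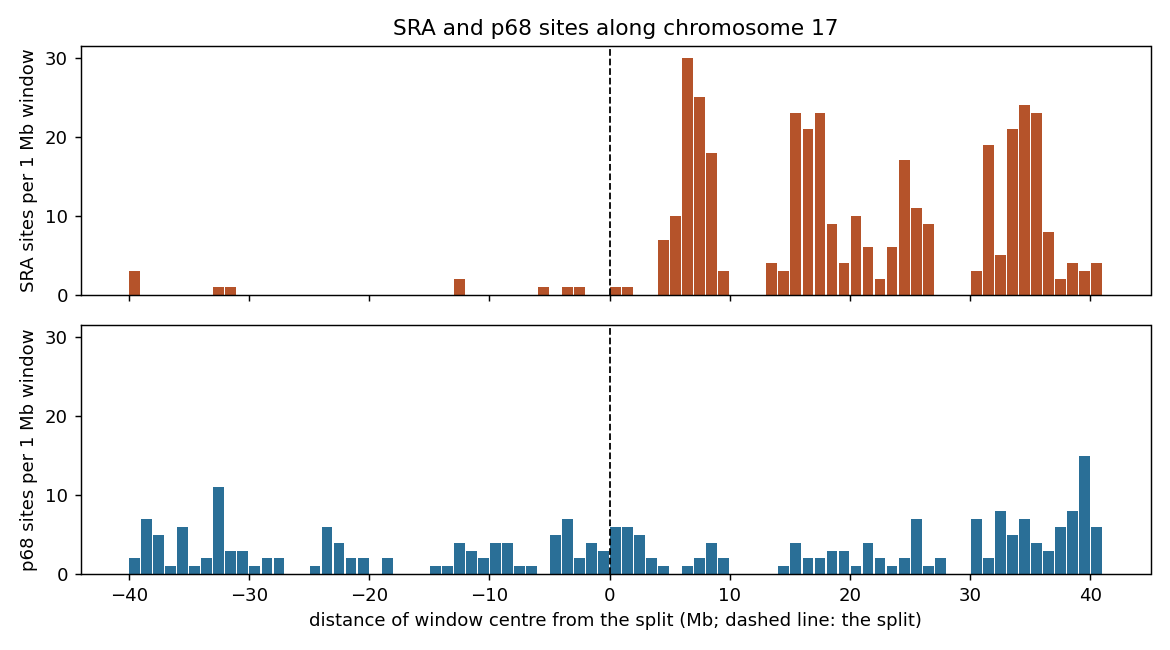
Sites per 1 Mb window along chromosome 17 for SRA (upper panel) and p68 (lower panel), against the distance of the window from the split at 40 Mb in Mb (dashed line). SRA windows hold at most 3 sites before the split and up to 30 after it, while p68 windows hold up to 11 before it and up to 15 after it.

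The p68 list as a whole did not have its main change at this position. The same 2-rate model placed the p68 change at 70 Mb, with 2.41 p68 sites per Mb before it and 6.45 after it. Averaged over the whole length, unknown sequence included, the p68 density was 2.82 per Mb before 44 Mb and 3.14 after it. Close to 44 Mb it fell. It was 4.75 per Mb from 40 to 44 Mb (19 sites) and 1.67 from 44 to 50 Mb (10 sites). Of the p68 sites of chromosome 17, 56.3% lay after 40 Mb, and 48.3% lay after 44 Mb. The p68 sites before 40 Mb were thus counted in regions where SRA sites were almost missing, and 33 of the 40 windows there held no SRA site but 76 p68 sites between them.

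SRA sites after 40 Mb came in stretches separated by long empty intervals. Windows holding SRA sites were joined into a stretch unless at least 2 empty windows lay between them, a rule set after the counts had been seen. This gave 4 stretches, from 40 to 42 Mb, from 44 to 50 Mb, from 53 to 67 Mb and from 70 to 81 Mb. The first held 2 SRA sites (1 per Mb) and 12 p68 sites (6 per Mb). The second stretch was the densest in SRA sites and the poorest in p68, with 93 SRA sites (15.5 per Mb) and 10 p68 sites (1.67 per Mb). The third held 148 SRA sites (10.6 per Mb) and 33 p68 sites (2.36 per Mb). The fourth held 116 SRA sites (10.5 per Mb) and 71 p68 sites (6.45 per Mb). The ratio of SRA to p68 sites was 0.17 in the first stretch, 9.30 in the second, 4.49 in the third and 1.63 in the fourth.

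**Figure D2:**
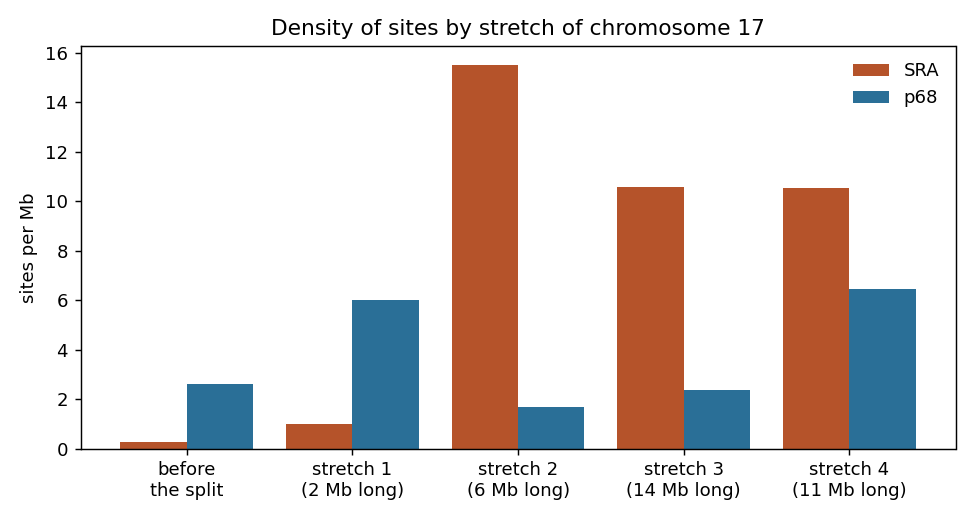
Sites per Mb before the split and in the 4 stretches of chromosome 17 that hold SRA sites after it, in order along the chromosome, for SRA and p68. SRA density is highest in the second stretch (15.5 per Mb), where p68 density is lowest of the stretches (1.67 per Mb).

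The 2 fullest SRA windows held few p68 sites, but windows dense in SRA sites were not poor in p68 as a set. The fullest SRA windows were those from 46 to 47 Mb with 30 SRA sites and 1 p68 site, and from 47 to 48 Mb with 25 and 2. The window from 74 to 75 Mb held 24 SRA sites and 7 p68 sites. Those starting at 55, 57 and 75 Mb, held 23 SRA sites each, beside 4, 2 and 4 p68 sites. In all, 14 of the 41 windows after 40 Mb held at least 10 SRA sites. They held 275 of the 359 SRA sites there and 43 of the 135 p68 sites, a p68 share near their share of the windows. The fullest p68 window lay near the end of the chromosome, from 79 to 80 Mb, with 15 p68 sites and 3 SRA sites. In the last 4 windows, from 77 to 81 Mb, there were 13 SRA sites and 35 p68 sites, and p68 outnumbered SRA in each of them. SRA sites outnumbered p68 sites in 24 of the 36 windows with any site after 40 Mb (66.7%), and in 2 of 34 before it (5.88%). Over all chromosomes this was so in 16.8% of the 2143 windows with any site. These shares restate the counts that chose the region.

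Empty intervals were of 2 kinds. Some were empty of both factors. The longest interval without SRA, from 49232528 to 53425790 (4.19 Mb), held no p68 site either, and it lay inside the longest interval without p68, from 49198714 to 54886618 (5.69 Mb, with 7 SRA sites in its remaining part). Likewise the interval without SRA from 66757908 to 70146884 (3.39 Mb) held 3 p68 sites, and most of it, between 67902763 and 70119667 (2.22 Mb), held no site of either list. Others were empty of a single factor. From 44271283 to 46604900 there was no p68 site over 2.33 Mb, and there were 34 SRA sites. This interval begins just past the point where the SRA sites set in and is the reverse of the one that ends there, with no SRA site and 10 p68 sites.

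SRA and p68 sites rarely met on this chromosome. After 40 Mb, a p68 site lay within 500 bp of the edges of 10 of the 359 SRA sites, which is 2.79% (95% Wilson interval 1.52 to 5.05%). In the whole SRA list the share was 11.6%, and on all other chromosomes it was 12.0% (907 of 7529, 11.3 to 12.8%). Counted in groups, in which SRA sites no more than 10 kb apart were joined, 9 of 263 groups after 40 Mb had a p68 site that close (3.42%), against 751 of 5180 on other chromosomes (14.5%). The share of SRA sites depends by construction on the ratio of SRA to p68 sites, which chose the region, so it is a description and no test of it is given. Chromosomes 16 and 7 also have a part rich in SRA sites beside one almost without them. The site share was 9.76% (8.11 to 11.7%) on chromosome 16 after 40 Mb and 14.8% (11.9 to 18.2%) on chromosome 7 before 60 Mb.

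Width and the distance to p68 also differed between these SRA sites and those elsewhere. Among SRA sites no wider than the median of the whole list the share was 3.27% after 40 Mb and 9.79% on other chromosomes, and among wider sites it was 1.75% and 14.2%. Where both lists were limited to sites no wider than their own median, 3.11% of groups after 40 Mb and 6.36% of groups on other chromosomes had a p68 site. A p68 site lay within 50 kb of 33.7% of SRA sites after 40 Mb and of 70.5% on other chromosomes. Of the SRA sites with one within 50 kb, 10 of 121 (8.26%) had it within 500 bp after 40 Mb, and 17.1% on other chromosomes. The parts of width and of p68 density in the low share were not tested.

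**Figure D3:**
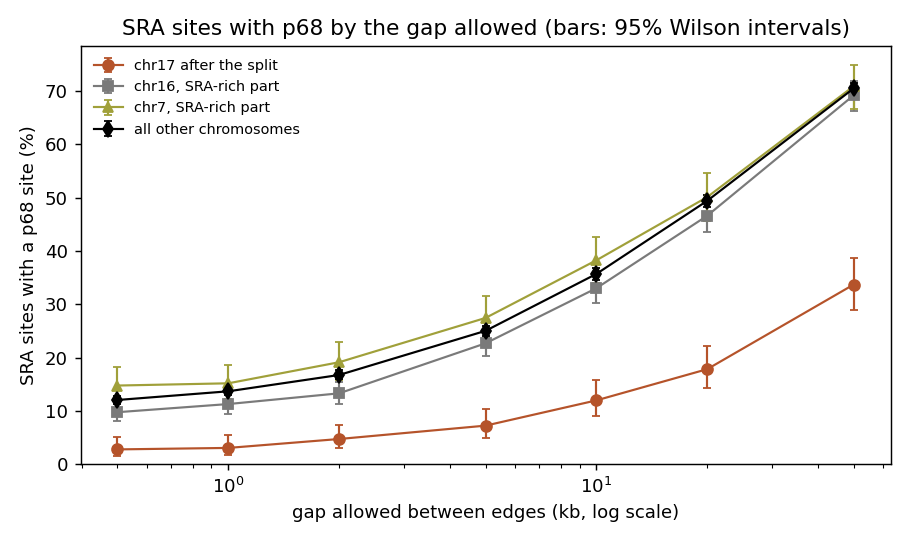
Share of SRA sites with a p68 site, in percent, against the gap allowed between their edges in kb (log scale), for chromosome 17 after 40 Mb, chromosome 16 after 40 Mb, chromosome 7 before 60 Mb and all other chromosomes, with 95% Wilson intervals. At each gap chromosome 17 lies below the others, from 2.79% against 12.0% on all other chromosomes at 500 bp to 33.7% against 70.5% at 50 kb.

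The share was also given at other gaps. At 2 kb it was 4.74% after 40 Mb and 16.7% on other chromosomes, at 5 kb 7.24% and 25.02%, and at 20 kb 17.8% and 49.4%. The median distance from an SRA site to the nearest p68 site was 91.9 kb after 40 Mb and 20.6 kb on other chromosomes. It was 57.99 kb for the 2 SRA sites of the first stretch, 148 kb in the second, 90.6 kb in the third and 58.4 kb in the fourth. Within 500 bp, p68 was found for none of the 2 SRA sites of the first stretch, 1 of 93 in the second (1.08%), 3 of 148 in the third (2.03%) and 6 of 116 in the fourth (5.17%), with 95% Wilson intervals that overlap.

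Counted over p68 sites, the share after 40 Mb had an interval that included that of the whole list. An SRA site was found within 500 bp of 9 of the 135 p68 sites after 40 Mb, which is 6.67% (95% Wilson interval 3.55 to 12.2%), and of 6.55% of the whole p68 list. By comparison it was 23.2% on chromosome 16 after 40 Mb, where SRA sites outnumbered p68 sites by a like ratio (2.61). Only 10 SRA sites lay before 40 Mb, by the choice of the region, so few p68 sites could have one near. SRA was found that close to none of the 105 p68 sites there, which allows a share of up to 2.86% (3 counts of 105). The median distance of these p68 sites to the nearest SRA site was 1071 kb, and after 40 Mb it was 44.2 kb.

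Among the 10 shared SRA sites, 6 overlapped a p68 site and 4 were separated from one by 99 to 423 bp. The longest overlap was that of the SRA site from 47020731 to 47024014 (3284 bp), which enclosed the whole p68 site from 47022592 to 47023780 (1189 bp). It was the single shared site of the second stretch. The next was 579 bp, between the SRA site from 73030885 to 73031982 and the p68 site from 73031404 to 73032135. In the remaining 4 overlapping pairs the sites met over 138 to 266 bp. The SRA site from 59322535 to 59323736 met the p68 site from 59323471 to 59324594 over 266 bp. The SRA site from 78008358 to 78009378 met the p68 site from 78009121 to 78010070 over 258 bp. The SRA site from 74260191 to 74261284 met the p68 site from 74261067 to 74262012 over 218 bp.

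A single p68 site, from 75954576 to 75955691, lay between 2 of the shared SRA sites, at 423 and 112 bp from them, which is why 10 SRA sites were matched by 9 p68 sites. In 2 of the 10 pairs the SRA site contained the p68 midpoint. Over all p68 sites after 40 Mb, 2 midpoints fell inside SRA sites (2.79 per Mb of SRA site) and 4 in the first 500 bp outside them (11.4 per Mb). On other chromosomes these densities were 11.1 and 54.0 per Mb. After 40 Mb as a whole there were 3.29 p68 sites per Mb, and the same value was not computed for other chromosomes. The few midpoints after 40 Mb were not tested. The median width was 1314 bp for the shared SRA sites and 1771 bp for the others after 40 Mb, and no test was made on 10 sites.

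SRA sites of chromosome 17 were narrow. After 40 Mb they had a median width of 1753 bp and a middle range (lower to upper quartile) of 1398 to 2436 bp. On other chromosomes the median was 2253 bp and this range 1651 to 3326 bp. Groups whose median width exceeded that of the whole list made up 31.9% after 40 Mb (84 of 263) and 50.2% on other chromosomes (adjusted p = 2.2e-08, two-sided Fisher's exact test on groups, Benjamini-Hochberg over 5 tests). This and the next tests compare sites within 1 list per assay and carry no replicate error. They treat groups as independent and leave out the spread between chromosomes. The SRA median was 2122 bp on chromosome 16 after 40 Mb and 2726 bp on chromosome 7 before 60 Mb. The median was 1788 bp in the first stretch (2 sites), 1800 bp in the second stretch, 1868 bp in the third and 1588 bp in the fourth. The widest SRA sites measured 6196 bp (47182567 to 47188762), 5870 bp (55334495 to 55340364) and 5474 bp (57913567 to 57919040). The nearest p68 site to each of them was 159, 192 and 313 kb away.

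The p68 sites of chromosome 17 were narrow on both sides of the split. Their median width was 970 bp before 40 Mb and 1001 bp after it. Groups wider than the list median made up 21.6% before and 27.4% after 40 Mb, a difference that did not pass the test (adjusted p = 0.44, Fisher's exact test, with 95% Wilson intervals of 14.6 to 30.8% and 20.3 to 35.9%). Against the 46.5% on other chromosomes, the groups after 40 Mb were less often wide (adjusted p = 2.9e-05, Fisher's exact test). The widest p68 sites after 40 Mb measured 2085 bp (71948996 to 71951080), 1970 bp (42667049 to 42669018) and 1913 bp (79398111 to 79400023). None of them lay within 500 bp of an SRA site, and the distances were 49.3 kb, 1199 kb and 28.1 kb.

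**Figure D4:**
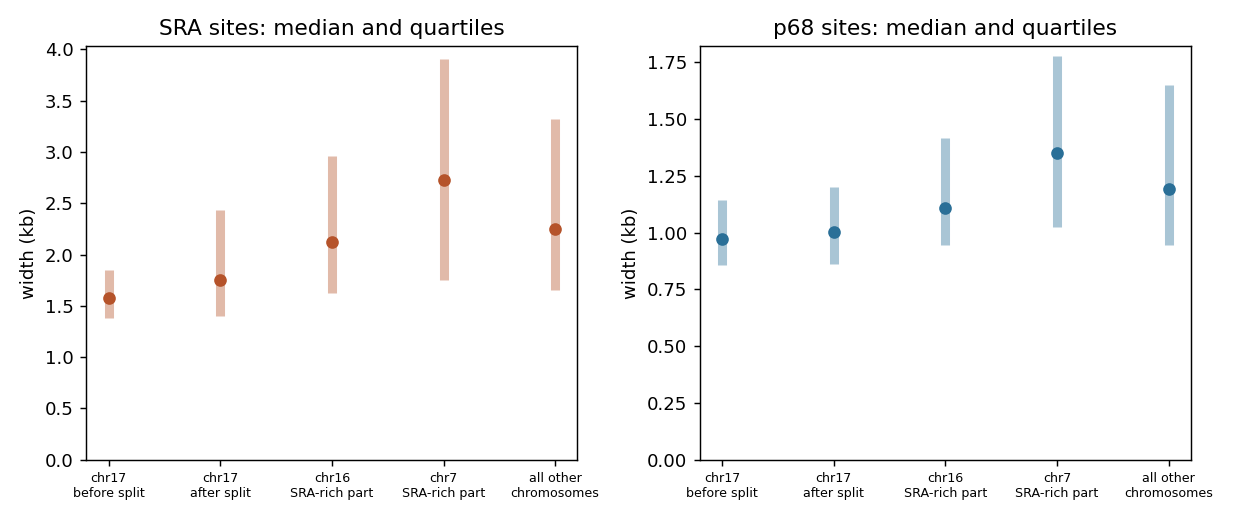
Median (point) and quartiles (bar) of the width of SRA sites (left) and p68 sites (right), in kb, before and after the split of chromosome 17, on the SRA-rich parts of chromosomes 16 (after 40 Mb) and 7 (before 60 Mb), and on all other chromosomes. SRA medians are 1581 and 1753 bp on chromosome 17 and 2253 bp on all other chromosomes, and p68 medians are 970, 1001 and 1190 bp.

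Most groups of SRA sites were single sites, after 40 Mb as on other chromosomes. Of all SRA sites after 40 Mb, 44.01% had another SRA site within 10 kb (95% Wilson interval 39.0 to 49.2%), an interval that includes the 48.3% of other chromosomes. On chromosome 16 after 40 Mb the share was 68.9%. Within 2 kb it was 16.99% (13.5 to 21.2%) on chromosome 17 after 40 Mb, against 27.2% on other chromosomes. These shares follow in part from the density that chose the region and were not tested. On other chromosomes 3892 of 5180 groups held a single SRA site, and on chromosome 16 after 40 Mb 325 of 552 did. Of the 263 groups after 40 Mb of chromosome 17, 201 held a single SRA site. Another 39 held 2, 16 held 3, 5 held 4, 1 held 5 and 1 held 7. The group of 7 ran from 56062454 to 56085944 and the group of 5 from 71636674 to 71651199. The first of the groups of 4 ran from 46577427 to 46598773. No p68 site had its midpoint inside any of these 3 groups.

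p68 sites stood mostly alone. Another p68 site lay within 10 kb for 15.6% of those after 40 Mb (10.4 to 22.6%) and for 14.3% of those before it (8.85 to 22.2%), against 38.3% on other chromosomes. Such shares follow from p68 density in part, and no test was made of them. On other chromosomes 8559 of 10454 p68 groups were single sites. Of 124 p68 groups after 40 Mb, 114 were single sites, 9 were pairs and 1 held 3. The group of 3 ran from 77995051 to 78010070 and overlapped the shared SRA site that starts at 78008358. The first pairs ran from 58447741 to 58450831 and from 65485540 to 65494143, with no SRA midpoint inside. Among the 10 p68 sites of the second stretch, the densest in SRA sites, no 2 lay within 10 kb of each other.

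The 10 SRA sites before 40 Mb were scattered over the short arm and the beginning of the long arm. There were 3 near the start of the chromosome, from 852873 to 854475, from 864442 to 866704 and from 880174 to 881507, and the first pair of them made the only group of more than 1 site. Further along, 2 ran from 7590586 to 7592259 and from 8076733 to 8077986. The others ran from 27278519 to 27280077, from 27567502 to 27568670, from 34475814 to 34477723, from 36348955 to 36351001 and from 37606405 to 37607942. Their widths ranged from 1169 to 2263 bp with a median of 1581 bp. None had a p68 site within 500 bp, which with 10 sites allows a share of up to 30% (3 counts of 10). The nearest p68 site was 47.1 to 620 kb away (median 223 kb).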

How the data were processed

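The deposited lists give the chromosome, start and end (in bp) of each site, without a score, count or replicate column. Per the labels and the methods text, the authors used reads aligned to hg19. Duplicates, and reads whose mapping quality was under 20, had been filtered out (SAMtools). MACS 1.4.2 gave the peaks, with a p-value limit of 1e-04 for SRA and 1e-05 for p68. The lists of 3 replicates were intersected and, for SRA, LacZ probe sites subtracted. The submitters' processing notes also name CASAVA 1.8.2, and the aligner is not given in the sources used here. A site missing from 1 replicate is therefore absent, and depth is unknown.

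Positions were used unfiltered and are printed with the first base as 1. Sites were placed by midpoint. Sharing was a gap between edges of at most 500 bp, and groups joined sites within 10 kb. Fisher's exact tests (two-sided, 5 tests, Benjamini-Hochberg) used these groups, with unplaced contigs left out. The 2 of them on sharing are not printed, because the share of SRA sites with p68 depends in part on the ratio that chose the region. The script was tested on simulated data. Alternatives were other splits, windows, sharing rules, widths, merging and distances. The members, the split and the measures were chosen with earlier results of these data known. Sites printed are those nearest the split, the widest, the largest groups, the longest overlaps and the longest intervals without a site, plus every SRA site before 40 Mb. Python 3.11.15, numpy 2.4.6, scipy 1.17.1, pandas 2.3.3 and matplotlib 3.10.9 were used.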

Additional observations from a re-analysis of the deposited data

How the results depend on the processing

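The boundary of the SRA sites was at 44 Mb with the other windows and with sites within 10 kb counted once, and at 44.03 Mb with midpoints as edges. The width tests of SRA sites against other chromosomes and of p68 sites between the sides of the split kept their direction and their side of the threshold under every alternative run, and placing sites by their start changed no value. The share of SRA sites with p68, 2.79%, was 2.86% with both lists limited to narrow sites, 0.279% with midpoints at most 500 bp apart and 0.279% with at least 50% of the site covered, rules of which the last 2 leave 1 such SRA site after 40 Mb. Counted in groups, these were 3.11%, 0.380% and 0.380%, against 6.36%, 1.06% and 0.830% on other chromosomes. The share kept its direction with any overlap, a gap of 2 kb, the other splits and each subset chosen after the data were seen. The share of p68 sites with SRA, 6.67% beside 6.55% in the whole list, was 6.34% with the split at 38 Mb. It was 0.741% by midpoints and 1.48% by coverage, rules for which no share of the whole list is given. SRA sites per p68 site fell from 2.66 to 2.12 with sites within 10 kb counted once. The percent of p68 sites past the split, 56.3%, was 48.3% with the split at 44 Mb, chosen after the data were seen. The share of sites with a neighbour was 16.99% for SRA and 2.96% for p68 within 2 kb, and 77.7% and 40.7% within 50 kb. No paired analysis was possible because each assay has a single list, and for the same reason no replicate could be left out.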
